A study of Homo sapiens with 8 samples.

Results

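The genes described here are 9 regulators of the luminal mammary epithelium: the transcription factors GATA3, FOXA1, ELF3, ELF5, EHF, SPDEF and TFAP2C, the estrogen receptor gene ESR1 and the progesterone receptor gene PGR. They were named as a list by their function, with earlier results of these data known, and each was matched by its Ensembl identifier, so that all 9 were found among the 56632 genes of the count table. They were followed across the 4 isogenic human lines of the MCF10A breast cancer progression series, called M1 to M4, each sequenced as poly A+ RNA from 2 biological replicates. M1 is MCF10A, a spontaneously immortalized and non-tumorigenic mammary epithelial line. M2 (MCF10AT1k.cl2) is MCF10A that received activated HRAS and was selected by growth as a xenograft, and M3 (MCF10Ca1h) and M4 (MCF10CA1a.cl1) were taken from carcinomas that arose in M2 xenografts. Each line is a single derivative, so that a difference between lines can belong to that derivative alone. All lines grew for 8 days as acini in Matrigel, in a medium with 2% horse serum, hydrocortisone, cholera toxin and insulin. The medium of M1 and M2 held EGF at 10 ng/ml and that of M3 and M4 held none (0 ng/ml), so that in any comparison of M3 or M4 with M1 or M2 the line and the EGF cannot be told apart.

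In the normal breast, ducts and alveoli are lined by an inner luminal layer and an outer basal layer. GATA3 and FOXA1 are DNA-binding factors that open or hold luminal chromatin, and FOXA1 and the AP-2 factor TFAP2C guide the estrogen receptor to its sites. The estrogen receptor switches on PGR, among other genes, when it binds its hormone. ELF3, ELF5, EHF and SPDEF belong to the epithelial branches of the ETS family of transcription factors, of which ELF5 drives the milk-producing alveolar state. MCF10A is known as a line of basal type that lacks estrogen receptor protein, so that these genes are read here in cells outside the hormone-responsive luminal state.

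Total counts ran from 69669970 to 107350344 per library. Replicates differed in closeness: the biological coefficient of variation (the spread between replicates beyond counting error) was 0.374 for M1, 0.0582 for M2, 0.306 for M3 and 0.269 for M4. A table published with the study assigns M1 replicate 2 and M2 replicate 1 the other way around. The sample labels were kept here, and every library had its highest rank correlation with the library labelled as its replicate (Spearman's rho 0.975 for the M1 libraries and 0.993 for the M2 libraries, against 0.973 between M1 replicate 2 and M2 replicate 1). The pairs that the exchange would make had 0.9675 (replicate 1 of M1 and M2) and 0.9711 (replicate 2 of M1 and M2). The numbering of the deposited columns, however, runs from M1 to M4 and again from M1 to M4 only with the exchange. Which assignment is right was not settled. HRAS, the introduced gene, was at 154.1 and 138.7 CPM (counts scaled to the effective library size) for M1, 159.8 and 153.5 (M2), 269.3 and 327.1 (M3) and 335.2 and 352.4 (M4). It rose over M1 by 1.03 on the log2 scale in M3 and by 1.23 in M4 (edgeR adjusted p = 0.0038 and 0.00119), and in M2 no rise was detected (log2 fold change 0.10 ± 0.15 SE, edgeR adjusted p = 0.736), so it does not tell the M1 and M2 libraries apart. M1 and M2 below mean the libraries so labelled, and for the 9 genes and the named genes of the lists below the calls lost with the 2 libraries exchanged or left out are given. The epithelial markers EPCAM, CDH1, KRT8 and KRT18 were present in all 8 libraries, summing with KRT5 and KRT14 to between 5940 and 11050 CPM.

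The 9 genes lie on 6 chromosomes. In the GRCh37 assembly, GATA3 spans chr10:8087341-8117161 on the plus strand, FOXA1 chr14:38058757-38065264 on the minus strand, and ESR1 chr6:151977826-152450754 on the plus strand. PGR spans chr11:100900355-101000544 (minus), ELF3 chr1:201977073-201986311 (plus), SPDEF chr6:34505579-34524110 (minus) and TFAP2C chr20:55204362-55214339 (plus). ELF5 (chr11:34500338-34546740, minus) and EHF (chr11:34642640-34684835, plus) are neighbours that point away from each other across 95899 bp. Promoters are shown for GATA3, SPDEF and FOXA1, 3 of the genes described below, as the 250 bases before the start of the canonical transcript, 5′ to 3′ on the gene's strand, read from GRCh37. A GATA motif (AGATAA), an AP-2 motif (GCCNNNGGC) and a FOX motif (TGTTTAC) were searched on both strands, and capitals mark a match.
GATA3: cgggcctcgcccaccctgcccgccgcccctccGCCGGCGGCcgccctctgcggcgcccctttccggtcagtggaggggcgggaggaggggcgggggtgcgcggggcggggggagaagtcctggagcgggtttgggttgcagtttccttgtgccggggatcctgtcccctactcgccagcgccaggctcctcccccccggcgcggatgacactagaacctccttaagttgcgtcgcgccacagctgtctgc
SPDEF: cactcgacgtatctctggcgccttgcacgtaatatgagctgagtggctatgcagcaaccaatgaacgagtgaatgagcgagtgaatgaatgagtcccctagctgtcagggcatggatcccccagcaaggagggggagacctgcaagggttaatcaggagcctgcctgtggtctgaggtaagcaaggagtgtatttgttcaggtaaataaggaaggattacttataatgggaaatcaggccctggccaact
FOXA1: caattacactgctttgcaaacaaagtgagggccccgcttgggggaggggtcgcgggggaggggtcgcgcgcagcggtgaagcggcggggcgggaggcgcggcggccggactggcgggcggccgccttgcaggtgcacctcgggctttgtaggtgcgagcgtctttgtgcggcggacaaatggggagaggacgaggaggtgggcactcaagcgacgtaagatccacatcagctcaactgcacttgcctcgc
The GATA3 promoter held 1 AP-2 match, a motif in 25.6% of 19881 promoters of the same length. SPDEF and FOXA1 held none of the 3. The GATA motif is in 6.56% of all promoters. The FOX motif, in 2.06% of all promoters, was found only before ELF5 among the 8 promoters searched. The longer ETS consensus ACCGGAAGT (1.22% of promoters), the estrogen response element (0.0352%) and the shorter receptor motif AGGTCA (9.90%) were found in none of these 8. No match says only that these letters are not in this window.

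Levels between genes were compared per kilobase of exon (CPM per kb). In M1, GATA3 was the highest of the 9 at 25.5 ± 4.9 CPM per kb (SD, n = 2), followed by EHF at 17.0 ± 6.7, TFAP2C at 16.1 ± 3.5 and ELF3 at 12.4 ± 2.1. GATA3 and EHF were not separated by their spread, and neither were EHF, TFAP2C and ELF3. SPDEF (1.69 ± 0.46) and FOXA1 (1.62 ± 0.55) formed a lower pair that the spread did not separate, and ESR1 (0.190 ± 0.144), ELF5 (0.0210) and PGR (0.00083) came last. The order was different in M4, where ELF3 led at 14.6 ± 8.0 CPM per kb and TFAP2C (5.95 ± 0.11), EHF (4.77 ± 1.13), GATA3 (4.60 ± 0.38) and FOXA1 (3.43 ± 0.0035) followed. In M4 the hormone receptors stayed low, at 0.125 ± 0.073 for ESR1 and 0.0099 ± 0.0029 for PGR, and so did SPDEF at 0.0282 ± 0.0074. In M3, TFAP2C was highest at 15.5 ± 7.7 CPM per kb, with GATA3 (4.93 ± 0.54), ELF3 (4.70 ± 3.45) and EHF (3.99 ± 0.60) within each other's spread.

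**Figure D1:**
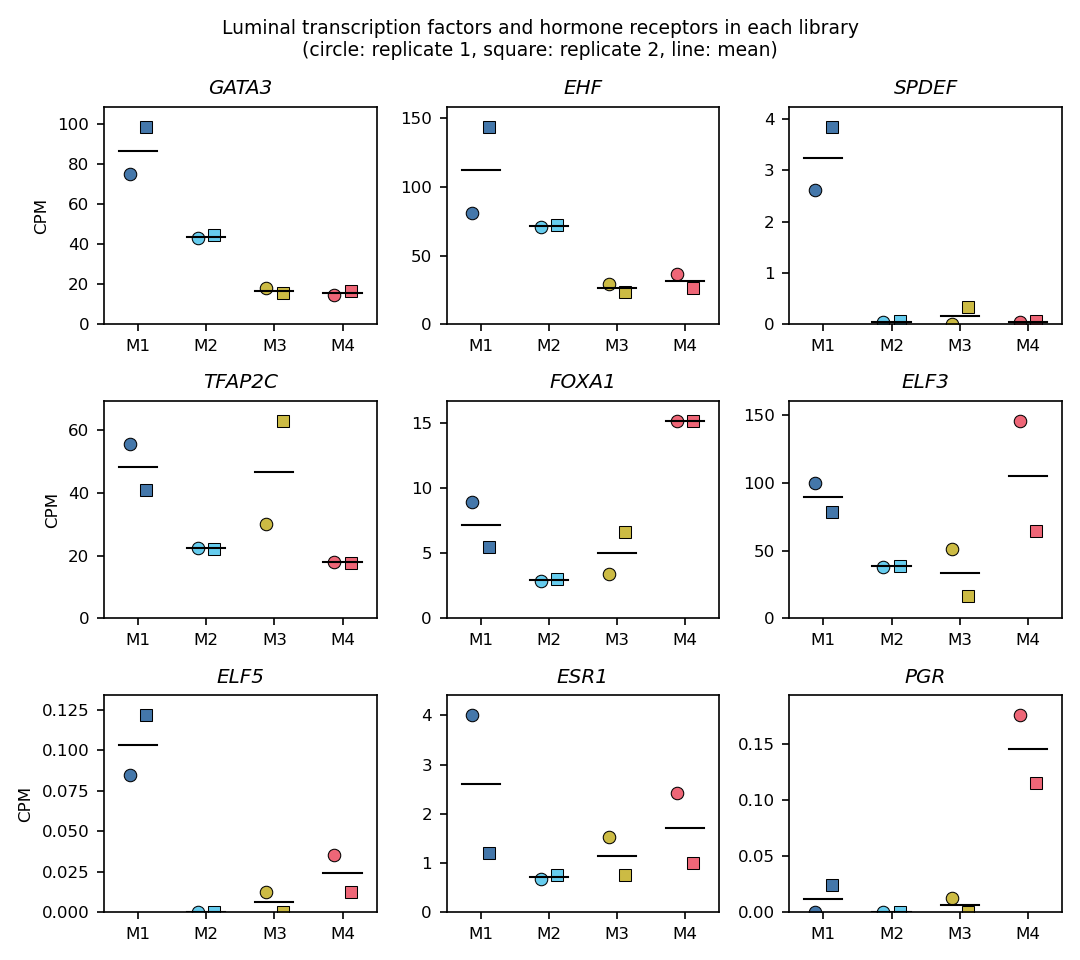
CPM of each of the 9 genes (vertical axes, linear from 0, a scale for each gene) in the 8 libraries, grouped by line from M1 to M4, with circles for replicate 1, squares for replicate 2 and lines for the mean. GATA3 and EHF are highest in M1 and lowest in M3 and M4, SPDEF is above 1 CPM only in M1, and FOXA1 is highest in M4 at 15.1 CPM in both replicates.

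GATA3 is the factor that specifies and keeps luminal identity. Its counts were 6183 and 8070 (M1), 4370 and 3117 (M2), 1427 and 1345 (M3) and 1668 and 1290 (M4), or 74.7 and 98.4 CPM (M1), 42.9 and 44.3 (M2), 18.0 and 15.4 (M3) and 14.7 and 16.5 (M4). Every M1 library was above every other library, and both M2 libraries were above those of M3 and M4, which overlapped. The log2 fold change from M1 was -2.37 ± 0.18 (SE) in M3 (edgeR adjusted p = 0.000498) and -2.47 ± 0.18 in M4 (edgeR adjusted p = 0.00022). In M2 it was -0.99 ± 0.17 with an edgeR adjusted p of 0.0213, just short of the 2-fold change (log2 fold change beyond 1 in size) that a call required here. From M2, GATA3 fell by 1.38 on the log2 scale in M3 (edgeR adjusted p = 0.00651) and by 1.48 in M4 (edgeR adjusted p = 0.00184). M4 differed from M3 by -0.10 (95% interval -0.50 to 0.30). The fall in M4 from M1 was called in all 18 alternative analyses, at -1.91 (adjusted p = 0.0301) with the 2 doubtful libraries exchanged and at -2.26 (adjusted p = 0.00207) without them. The fall in M3 from M1 was called in 17 of 18, and was -1.81 (adjusted p = 0.0874) with the exchange. The fall in M3 from M2 was lost without M2 replicate 1 (adjusted p = 0.068) or M2 replicate 2 (adjusted p = 0.0748) and with the exchange (adjusted p = 0.0672). The antisense gene GATA3-AS1, which lies in the GATA3 span without sharing an exon, had 0 to 33 counts per library and a log2 fold change of -2.98 in M4 against M1 (adjusted p = 0.155).

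EHF, an ETS factor of simple and glandular epithelia, followed GATA3. It was at 80.8 and 143.5 CPM (M1), 71.0 and 71.8 (M2), 29.2 and 23.6 (M3) and 36.8 and 26.3 (M4). The M1 replicates were 1.78-fold apart, with replicate 1 near the M2 libraries, and both M3 and both M4 libraries lay below all of M1 and M2. EHF fell from M1 by 2.09 ± 0.29 on the log2 scale in M3 and by 1.83 ± 0.29 in M4 (edgeR adjusted p = 0.00327 in each). It also fell from M2, by 1.44 in M3 (edgeR adjusted p = 0.0309) and by 1.18 in M4 (edgeR adjusted p = 0.0229), and M4 and M3 differed by 0.26 (95% interval -0.39 to 0.91). M2 against M1 gave -0.65 (95% interval -1.30 to -0.0044), which did not pass. With the 2 doubtful libraries exchanged, EHF was -1.53 in M3 (adjusted p = 0.0856) and -1.27 in M4 (adjusted p = 0.0561) against M1, and without them -1.61 (adjusted p = 0.0156) and -1.36 (adjusted p = 0.0195). The fall from M2 in M3 was lost without M2 replicate 1, M2 replicate 2, M3 replicate 1 or M3 replicate 2 (adjusted p = 0.177, 0.182, 0.0794 and 0.121) and without both doubtful libraries (adjusted p = 0.0559), and that in M4 without M2 replicate 1, M2 replicate 2, M4 replicate 1 or M4 replicate 2 (adjusted p = 0.109, 0.112, 0.0561 and 0.135). Across the 8 libraries, log2 CPM of EHF and GATA3 had a Pearson r of 0.960, given as a description, since the libraries share 4 lines and the medium.

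SPDEF, an ETS factor of secretory and hormone-responsive epithelium, was near 0 outside M1. Its counts were 216 and 315 (M1), 4 and 5 (M2), 0 and 29 (M3) and 5 and 5 (M4). No library of M2 to M4 came near M1, and M3 replicate 2 was the only one of them above 5 counts. SPDEF passed the filter on low counts only through M1, where it is high, so that its difference from M1 is partly set by the filter and its calls are given as a description. The log2 fold change from M1 was -5.87 ± 1.31 in M2 (edgeR adjusted p = 0.0486), -4.25 ± 1.17 in M3 (edgeR adjusted p = 0.0391) and -5.89 ± 1.31 in M4 (edgeR adjusted p = 0.013). These calls sat close to the threshold: the one in M2 was lost without M1 replicate 1, M1 replicate 2, M2 replicate 1, M2 replicate 2, M4 replicate 1 or M4 replicate 2 (adjusted p = 0.0762 to 0.368), and the one in M3 without the same 6 (adjusted p = 0.0634 to 0.0919). The call in M4 was lost without M4 replicate 1 (adjusted p = 0.0869) or M4 replicate 2 (adjusted p = 0.0825). Which libraries are M1 decides this gene: with M1 replicate 2 and M2 replicate 1 exchanged, M2 against M1 turned to 0.57 (adjusted p = 1.0), and M3 and M4 stood at -2.96 (adjusted p = 0.521) and -4.60 (adjusted p = 0.267). Without both libraries the values were -5.17 in M2 (adjusted p = 0.371), -3.94 in M3 (adjusted p = 0.144) and -5.58 in M4 (adjusted p = 0.0629).

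TFAP2C, the AP-2 factor of luminal and of extraembryonic cells, separated M4 from M3. It was at 55.7 and 40.9 CPM (M1), 22.6 and 22.1 (M2), 30.2 and 63.0 (M3) and 18.1 and 17.6 (M4). The M3 replicates were 2.09-fold apart and spanned the M1 values, whereas both M4 libraries were the lowest of the 8. TFAP2C fell in M4 by 1.44 ± 0.32 on the log2 scale from M1 (edgeR adjusted p = 0.0129) and by 1.39 ± 0.32 from M3 (edgeR adjusted p = 0.026). M3 against M1 gave -0.05 (95% interval -0.78 to 0.67), and M2 against M1 gave -1.11 ± 0.32, not called by edgeR (adjusted p = 0.09) and called lower in 6 of 18 alternatives, among them DESeq2 (adjusted p = 0.0107) and limma voom (adjusted p = 0.0209). With the doubtful libraries exchanged, M2 against M1 was -0.31 ± 0.51 and was not called. The fall from M1 was lost without M1 replicate 1, M4 replicate 1 or M4 replicate 2 (adjusted p = 0.0602, 0.0704 and 0.0861) and with the doubtful libraries exchanged (-1.13, adjusted p = 0.204), and it held without both of them (-1.64, adjusted p = 0.0348). The fall from M3 was -0.76 without M3 replicate 2 (adjusted p = 0.053), and was also lost without M2 replicate 1, M2 replicate 2, M4 replicate 1 or M4 replicate 2 (adjusted p = 0.0581 to 0.13) and with the exchange (adjusted p = 0.158), and it held without both doubtful libraries (adjusted p = 0.0434). Its close relative TFAP2A, at 72.6 and 63.7 CPM in M1, fell by 1.12 in M3 (edgeR adjusted p = 0.00231) and gave -0.18 in M4 (adjusted p = 0.352).

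FOXA1, the forkhead pioneer factor, was highest in M4 and lowest in M2. Its counts were 735 and 447 (M1), 291 and 213 (M2), 267 and 578 (M3) and 1716 and 1182 (M4), and in CPM both M4 libraries (15.1 and 15.1) were above all others, which lay between 2.86 and 8.88. FOXA1 was higher in M4 by 2.36 ± 0.38 on the log2 scale over M2 (edgeR adjusted p = 0.00522) and by 1.60 ± 0.37 over M3 (edgeR adjusted p = 0.0256). Over M1 the difference in M4 was 1.08 ± 0.36, which missed the threshold (edgeR adjusted p = 0.0549, with a range of 0.0046 to 0.305 over the alternatives) and was called in 6 of 18 alternatives, among them DESeq2 (adjusted p = 0.0119) and limma voom (adjusted p = 0.0262). M2 against M1 gave -1.28 ± 0.37, larger in size, which edgeR did not call (adjusted p = 0.0899) and 5 of 18 alternatives did, among them DESeq2 (adjusted p = 0.00744) and limma voom (adjusted p = 0.0268). By the labels, the rise over M2 therefore starts from a lower level than that over M1. With the doubtful libraries exchanged, M2 against M1 was -0.47 ± 0.58 and was not called. The rise over M2 was lost without M2 replicate 1 or M2 replicate 2 (adjusted p = 0.0567 and 0.0514) and with the doubtful libraries exchanged (adjusted p = 0.085). The rise over M3 was lost without M2 replicate 1, M2 replicate 2, M3 replicate 1, M4 replicate 1 or M4 replicate 2 (adjusted p = 0.0575 to 0.108) and with the exchange (adjusted p = 0.155). Without both doubtful libraries the 2 rises had adjusted p = 0.0348 and 0.0364. TTC6, a gene on the other strand whose exons share 16 bp with FOXA1, had 25 and 18 counts (M1), 14 and 0 (M2), 19 and 10 (M3) and 88 and 73 (M4), and was called higher in M4 over M2 as well (3.51 ± 1.06, edgeR adjusted p = 0.0495). Whether reads were counted by strand is not given in the sources used here, and the part of shared reads was not tested.

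ELF3, an ETS factor induced in differentiating and inflamed epithelium, was abundant and variable. It stood at 99.9 and 78.9 CPM (M1), 37.8 and 39.0 (M2), 51.3 and 16.2 (M3) and 146.1 and 64.3 (M4). The M3 replicates were 3.16-fold and the M4 replicates 2.27-fold apart, and M4 overlapped M1. The main edgeR fit called it in no comparison. M2 against M1 gave -1.22 (95% interval -2.51 to 0.069, adjusted p = 0.236), with both M2 libraries below both M1 libraries. With the doubtful libraries exchanged that value was -0.22. The differences were -1.41 in M3 against M1 (95% interval -2.70 to -0.11, adjusted p = 0.112), 0.23 in M4 against M1 (95% interval -1.04 to 1.50) and 1.64 in M4 against M3 (95% interval 0.34 to 2.94, adjusted p = 0.0848). M4 against M2 gave 1.45 (95% interval 0.16 to 2.75, adjusted p = 0.101). DESeq2 called ELF3 in M3 against M1, M4 against M2 and M4 against M3 (adjusted p = 0.0126, 0.00918 and 0.00332), limma voom in M4 against M2 (adjusted p = 0.0111), and the replicate block in M3 against M1 and M4 against M3 (adjusted p = 0.0426 and 0.0403). With no filter on low counts edgeR called it lower in M2 and M3 against M1 (adjusted p = 5.14e-08 and 7.17e-11). That fit also called it higher in M4 against M2 and against M3 (adjusted p = 1.04e-11 and 2.01e-14). With only the 2 lines compared edgeR called it in M2 against M1 and M4 against M2 (adjusted p = 0.0302 and 0.0366). The antisense gene ELF3-AS1, which shares 664 bp of exon with it, had 187 and 86 counts (M1), 61 and 56 (M2), 70 and 27 (M3) and 300 and 67 (M4), with no call.

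ELF5, the alveolar ETS factor, was barely detected. It had 7 and 10 counts (M1), 0 and 0 (M2), 1 and 0 (M3) and 4 and 1 (M4), and it did not pass the filter on low counts, so it was not tested. Set against a floor of 3 counts over the group, M1 was at least 5.92-fold above M2. The ratio of M1 to M3 was 17.2 with a counting interval of 2.69 to 717. These values depend on the labels. With M1 replicate 2 and M2 replicate 1 exchanged, M1 would hold 7 and 0 counts and M2 10 and 0. Both intervals and floors cover counting error only, and at this depth a level below the floor was not detectable in M2.

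Both hormone receptors were low. ESR1 had 332 and 99 counts (M1), 70 and 54 (M2), 122 and 66 (M3) and 275 and 79 (M4), or 4.01 and 1.21 CPM, 0.688 and 0.768, 1.54 and 0.758, and 2.42 and 1.01. Replicates were 3.32-fold apart in M1 and 2.39-fold in M4, with replicate 1 the higher in each, and the ranges of M1, M3 and M4 overlapped. edgeR called ESR1 in no comparison. Against M1 it was -1.84 in M2 (95% interval -3.44 to -0.25, adjusted p = 0.164), -1.18 in M3 (95% interval -2.74 to 0.37) and -0.60 in M4 (95% interval -2.13 to 0.93). The value in M2 was called lower by DESeq2 (adjusted p = 0.0382) and by edgeR with no filter on low counts (adjusted p = 0.00388). With the doubtful libraries exchanged it was -1.25 ± 0.855 and was not called. PGR, a target of the estrogen receptor, had 0 and 2 counts (M1), 0 and 0 (M2), 1 and 0 (M3) and 20 and 9 (M4). It passed the filter on low counts only through M4, so that its difference is partly set by the filter. Its counts are given as a description, and M4 was at least 8.69-fold above M2, taken at the floor of 3 counts over the group. The ratio of PGR counts in M4 to those in M1 was 12.5 with a counting interval of 3.16 to 108. The fit gave an edgeR adjusted p of 0.0473 for M4 over M2, which is not read as a result: it was lost in each of the 7 fits without 1 library in which PGR was tested (adjusted p = 0.0502 to 0.231), with the replicate block (adjusted p = 0.0745), with the doubtful libraries exchanged (adjusted p = 0.174) and without both (adjusted p = 0.188), and DESeq2 gave no adjusted p. Over M1 the edgeR adjusted p was 0.0979. Even in M4 its level was 0.176 and 0.115 CPM. PGR-AS1, a gene on the other strand, shares 737 bp of exon with PGR and is not among the genes counted. The part of antisense reads in the PGR counts was not tested.

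**Figure D2:**
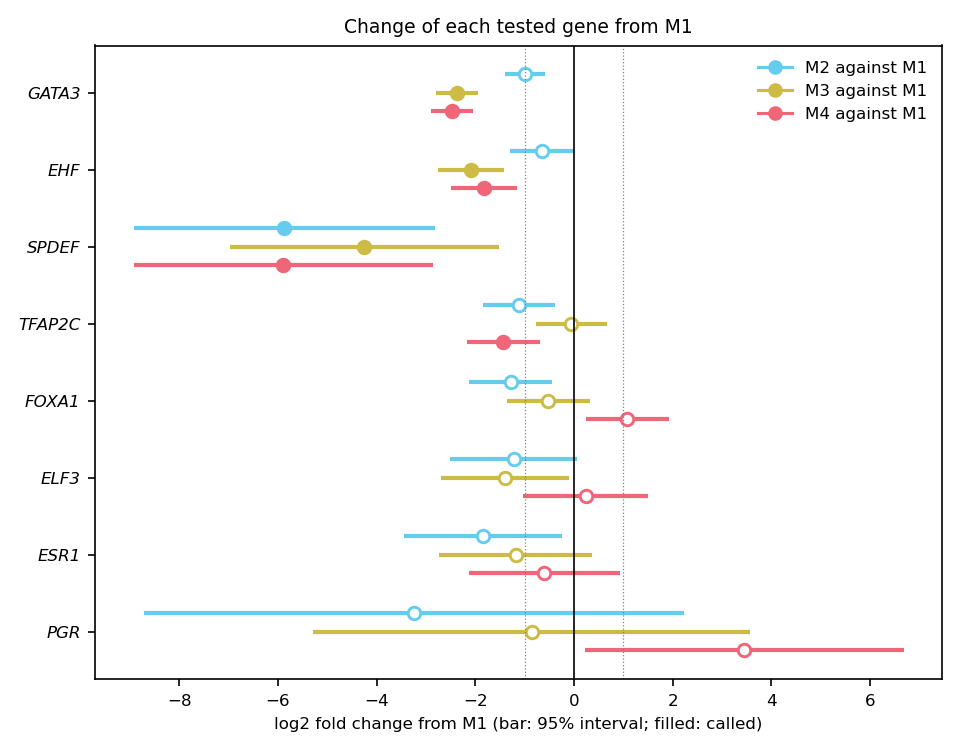
Log2 fold change from M1 (horizontal axis) of the 8 tested genes in M2, M3 and M4, with points for the estimate, bars for the 95% interval and filled points for calls; dotted lines mark a log2 change of 1 in either direction. GATA3 and EHF have narrow intervals below 0 in M3 and M4, SPDEF is far below 0 with wide intervals, and FOXA1 in M4 lies at 1.08.

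Of the 9 genes, 8 passed the filter, PGR only through M4 and SPDEF only through M1. The calls named next are those of edgeR, leaving aside PGR and SPDEF, whose differences were partly set by the filter. In M2 against M1 none of the other genes was called, where 1.11% of the 18431 genes tested were called lower and 2.26% higher. In M3 against M1, GATA3 and EHF were lower and 0 were higher, beside 5.51% lower and 8.02% higher of all genes. In M4 against M1, GATA3, EHF and TFAP2C were lower and 0 were higher, beside 11.2% lower and 9.48% higher, and DESeq2 and limma voom called FOXA1 higher there. With SPDEF included, edgeR called 1 gene lower in M2, 3 in M3 and 4 in M4 against M1. The median log2 fold change from M1 of the 8 tested genes, SPDEF and PGR among them, was -1.25 for M2, -1.30 for M3 and -1.02 for M4. With the 2 doubtful libraries exchanged it was 0.028 for M2, -1.03 for M3 and -0.79 for M4, and without both it was -1.34, -1.59 and -1.29. That of all genes tested lay within 0.05 of 0 in each comparison. From M2, 2 genes were lower in M3 (GATA3 and EHF; 1.20% of all genes lower and 2.95% higher), and in M4 the same 2 genes were lower and FOXA1 higher (6.94% of all genes lower and 6.98% higher), leaving aside PGR. From M3 to M4, FOXA1 was higher and TFAP2C lower (3.99% of all genes higher and 6.30% lower). With M1 replicate 2 and M2 replicate 1 exchanged, M2 against M1 had 0 called members and 0.00% of all genes called in either direction by edgeR (315 genes had an unadjusted p under 0.05), M3 against M1 had 0 members and 1.19% of all genes, and M4 against M1 had 1 member (GATA3) and 8.46% of all genes. The comparisons share the M1 libraries, so that their agreement is not independent. In bulk RNA, fewer cells that express a gene and less of its RNA per cell cannot be told apart.

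Of 16 other ETS genes, 13 were tested, and in M4 against M1 4 were called higher and 1 lower, with a median of -0.04. This and the list counts that follow stand beside the 9.48% of all genes called higher and 11.2% called lower in that comparison. With the doubtful libraries exchanged, 8.46% of all genes were called there in either direction. The difference of these lists from the 9 genes was not tested. ELK3, a ternary complex factor downstream of RAS and ERK signalling, was at 20.8 and 20.4 CPM (M1), 43.7 and 42.8 (M2), 63.1 and 62.6 (M3) and 82.8 and 99.4 (M4), with no overlap between lines. It rose by 1.07 in M2, 1.61 in M3 and 2.15 in M4 (edgeR adjusted p = 0.00842, 0.000607 and 0.00016). ETS1, the founding member of the family, was at 15.8 and 26.9 CPM (M1) and 134.3 and 129.9 (M4), a rise of 2.63 ± 0.26 (edgeR adjusted p = 0.000588). ETV4 and ETV5, of the PEA3 group, were also called higher in M4, and ETS2 fell by 1.20 (edgeR adjusted p = 0.00564). ELF2 gave -0.72 (adjusted p = 0.00965), under the fold limit. In M3 against M1, 4 were called higher and 0 lower, beside 8.02% higher and 5.51% lower of all genes. With the doubtful libraries exchanged, ELK3 was not called in M2, M3 or M4 (adjusted p = 1.0, 0.283 and 0.0677) nor was ETV5 in M4 (adjusted p = 0.0597), and without both ELK3 was not called in M2 (adjusted p = 0.173). The hematopoietic ETS gene FLI1 had 0 counts in every library.

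**Figure D3:**
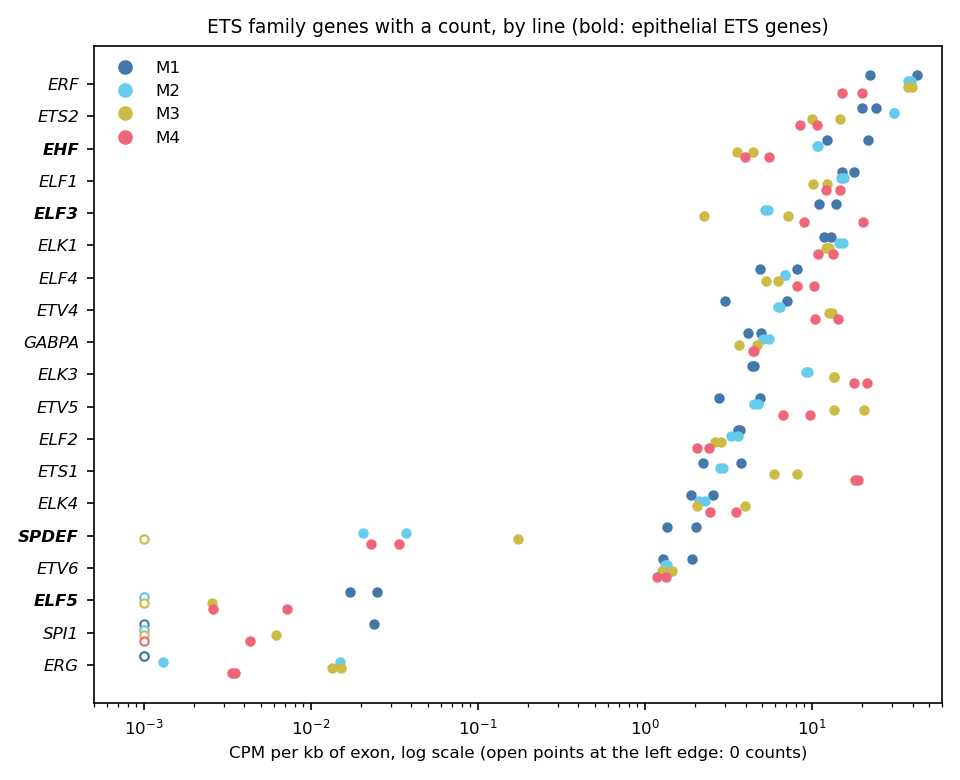
CPM per kb of exon (horizontal axis, log scale) of the ETS family genes with a count, 2 points a line, coloured by line, with open points at the left edge for 0 counts and the epithelial ETS genes in bold. EHF shifts from right to left between M1 and M4 while ELK3 and ETS1 shift from left to right, and SPDEF in M2 to M4 lies far left of M1.

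Relatives of GATA3, FOXA1 and TFAP2C were mostly silent. Of 11, 4 were tested (GATA2, GATA6, TFAP2A and TFAP2E), and in M4 against M1 0 were called by edgeR (0 with an unadjusted p under 0.05, the 4 lying between 0.224 and 0.522), with a median of 0.41. GATA6, a GATA factor of endoderm and other tissues, was between 3.72 and 6.44 CPM in all libraries. FOXA2, GATA1, GATA4 and TFAP2D had 0 counts throughout.

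Among 16 other steroid and nuclear receptors, 15 were tested, and in M4 against M1 0 were called higher and 2 lower (median -0.22), a share near that of all genes called lower. THRA, a thyroid hormone receptor, was at 43.3 and 43.0 CPM in M1, 20.5 and 21.6 in M3 and 5.94 and 8.99 in M4, and fell by 1.03 in M3 (edgeR adjusted p = 0.0107) and by 2.53 in M4 (edgeR adjusted p = 0.000287). ESRRG, an orphan receptor, was the other gene called lower, and it fell by 2.28 ± 0.58 (edgeR adjusted p = 0.0216). That call was lost with the doubtful libraries exchanged (adjusted p = 0.581) and without both (adjusted p = 0.0967), and so was the fall of THRA in M3 (adjusted p = 0.103 and 0.0766). The orphan receptor ESRRA (-0.92) and the retinoic acid receptor RARG (-0.67) passed the adjusted p and not the fold limit. The glucocorticoid receptor gene NR3C1, whose ligand was in the medium, was between 51.4 and 103.2 CPM with a difference of 0.34 (95% interval -0.27 to 0.94). ESR2, the second estrogen receptor gene, stayed between 0.101 and 0.317 CPM. Of 10 receptor cofactors, only NRIP1, a corepressor that estrogen induces, was called, at 30.8 and 27.8 CPM in M1 and 76.7 and 67.5 in M4 (1.30 ± 0.18, edgeR adjusted p = 0.00197).

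Of 20 estrogen and progesterone response genes, 14 were tested, and in M4 against M1 3 were higher and 4 lower (median -1.33). XBP1, a secretory pathway factor, rose by 1.14 (edgeR adjusted p = 0.00149). SGK1 and FKBP5, which glucocorticoids also induce, fell by 2.06 and 2.12 (edgeR adjusted p = 0.00166 and 0.00381), and WNT4, a progesterone target in luminal cells, fell by 4.39 (edgeR adjusted p = 0.00372). AREG and STC2 were the others called higher and CA12 the other called lower. With the doubtful libraries exchanged AREG and STC2 were not called (adjusted p = 0.846 and 0.3), and without both CA12 was not (adjusted p = 0.0941). GREB1, an estrogen target, was at 35.4 CPM in M1 replicate 1, where ESR1 was highest, and between 3.15 and 6.11 CPM in the other 7 libraries. That is 1 library, and PGR had 0 counts in it. A link of GREB1 to ESR1 was not tested. TFF1 and TFF3, commonly used marks of estrogen response, had 0 counts in every library.

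Milk and alveolar genes, with which ELF5 is associated, were mostly silent. The caseins CSN1S1, CSN2 and CSN3 and LALBA had 0 counts in every library, and 5 of 12 genes were tested (median -3.65 in M4 against M1, with 1 higher and 2 lower). The prolactin receptor gene PRLR, at 6.26 and 23.4 CPM in M1 and 1.03 and 0.551 in M4, fell by 4.22 (edgeR adjusted p = 0.00512). STAT5A, which relays its signal, was at 11.0 and 2.96 CPM (M1) and 0.379 and 0.743 (M4), and fell by 3.65 (edgeR adjusted p = 0.00564). XDH, a milk fat globule enzyme, rose by 2.47 (edgeR adjusted p = 0.0179), and LTF gave -4.82 (adjusted p = 0.0822). With the doubtful libraries exchanged, 0 of these genes were called in M4 against M1 by edgeR.

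Luminal markers moved in both directions. Of 16 luminal markers 13 were tested, and in M4 against M1 7 were called higher and 2 lower (median 1.26). CLDN4, a tight junction gene, was at 49.5 and 46.4 CPM in M1 and 378.8 and 271.0 in M4 (2.76 ± 0.23, edgeR adjusted p = 0.000298), and ALDH1A3, a marker of luminal progenitors, rose by 2.08 (edgeR adjusted p = 0.000844). KRT18, a luminal keratin, was at 413.8 and 444.7 CPM in M1 and 2089 and 1340 in M4. MLPH fell from 16.8 and 11.4 CPM in M1 to 0.0264 and 0.0256 in M4 (edgeR adjusted p = 9.62e-05), and MUC1, the luminal surface mucin, fell by 4.98 (edgeR adjusted p = 0.00022). Of 16 basal markers 14 were tested, with 4 higher and 3 lower (median 0.42). KRT6B and LAMB3 rose by 3.19 and 2.64 (edgeR adjusted p = 0.000341 and 0.000531), while TP63, the master factor of the basal layer, fell by 1.38 and KRT14 by 2.37 (edgeR adjusted p = 0.00133 and 0.00204). In M3 against M1, by contrast, 7 basal markers were called higher and 0 lower, beside 8.02% higher and 5.51% lower of all genes. With the doubtful libraries exchanged, 5 luminal markers were called higher and 2 lower in M4 against M1, and 1 basal marker higher and 3 lower, and KRT6B lost its call (adjusted p = 0.0802). Without both libraries the median in M4 against M1 was 0.40 for the luminal markers and 0.23 for the basal markers. In M3 against M1, 3 basal markers were called higher with the exchange, beside 1.19% of all genes called in either direction.

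**Figure D4:**
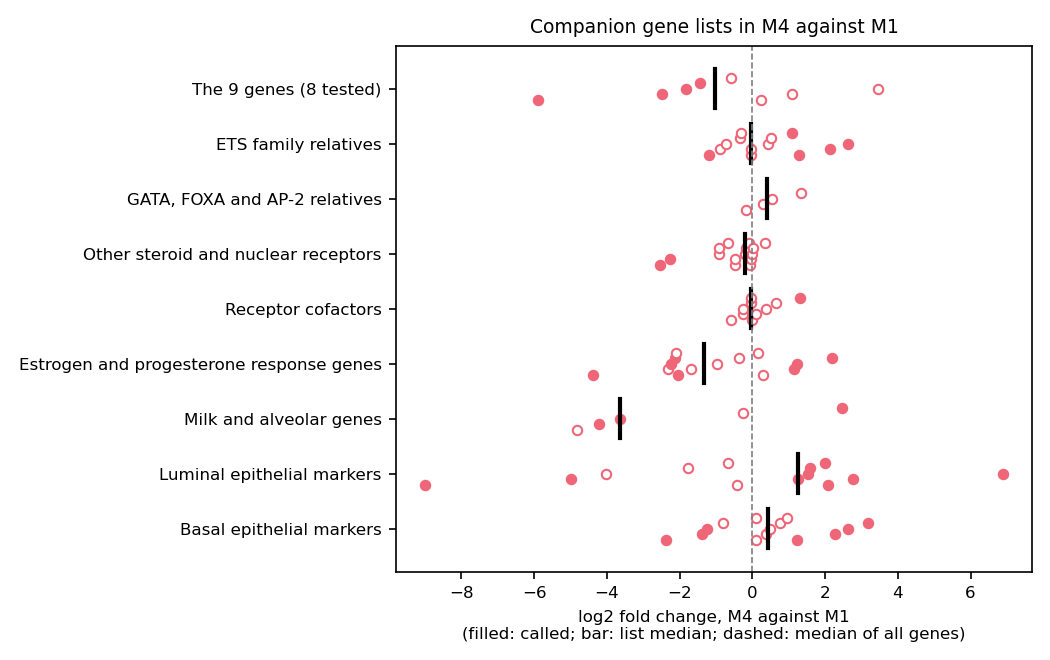
Log2 fold change in M4 against M1 (horizontal axis) of the tested members of each gene list, with filled points for calls, a bar for the list median and a dashed line for the median of all genes tested. Most of the 8 tested regulators lie left of 0, whereas the luminal markers have a median of 1.26 and points at both ends.

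Markers of other cell types were checked as well. Of 7 leukocyte markers, CD3E had 0 counts in every library and PTPRC at most 3, and the summed level ran from 8.66 to 54.4 CPM over the 8 libraries, highest in M4, where CD68 made up most of it at 51.4 and 39.0 CPM. In M4 against M1, 1 leukocyte marker was called higher and 2 lower. Of 7 fibroblast markers, COL1A2 had 0 counts in every library, and the sum ran from 11.9 to 81.6 CPM, with DCN at 34.1 and 1.62 CPM in M1, 60.2 and 58.6 in M2 and at most 2.11 in M3 and M4. In M4 against M1, 1 fibroblast marker was called higher and 2 lower. The 4 matched endothelial markers summed to between 0.243 and 3.21 CPM, with 0 called higher and 1 lower. With the doubtful libraries exchanged, these 3 lists together had 1 leukocyte marker called higher and 1 fibroblast marker called lower.

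The genes whose log2 CPM followed each regulator most closely over the 8 libraries, among 11074 protein-coding genes, were taken as a description with no test. They were PROM2 (Pearson r 0.995), SARAF and CCDC127 for GATA3, ZNF785 (0.988), PIK3IP1 and PITPNM1 for EHF, and SEC14L1 (0.969), AMPD2 and DOCK8 for SPDEF. For TFAP2C they were IFITM10 (0.953), PPM1B and TOB1, and for FOXA1 RANBP9 (0.996), CCDC149 and MPP3. ELF3 was followed most closely by MIEF2 (0.976), WDR45 and RP2, ESR1 by ZNF343 (0.952), DHRS3 and RNF39, and PGR by IFRD1 (0.989), FBXW5 and SEC24D. The 8 points fall in 4 lines, and with so many genes searched high values are found for any gene.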

How the data were processed

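Poly A+ RNA of M1, M2, M3 and M4 acini was measured in 8 libraries, 2 biological replicates a line, grouped by the sample labels. The authors trimmed paired-end reads with Trimmomatic, aligned them with STAR to hg19 (GRCh37) and deposited RSEM expected counts per gene of GENCODE release 19, which are not normalized; tool versions and the use of strand are not given in the sources used here. Of the deposited values 12.8% were not whole, and expected counts were rounded. Library totals had a median of 84947231, and at that depth a gene with a few counts carries a large counting error.

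Lines were compared by quasi-likelihood tests in edgeR 4.0.16 (R 4.3.3; robust, TMM scaling, filterByExpr, 1 coefficient a line over 8 libraries). P-values were adjusted by Benjamini-Hochberg across all 18431 tested genes; a call needed an adjusted p under 0.05 and an absolute log2 fold change above 1. All p-values named adjusted come from this fit unless another setting is named. Standard errors were derived from the F statistic. Intervals are at 95%. CPM used TMM-scaled totals, and CPM per kb the union of exons in GENCODE release 44 lifted to GRCh37 (94.7% of genes with a count matched), from which positions also came. The union is long for genes with many isoforms, such as ESR1 and PGR, and lowers their values. The replicates are labelled biological, and whether cultures were independent beyond that is not stated. P-values measure the spread between these samples, which the fit estimates once per gene over all lines. The close M2 replicates (coefficient of variation 0.0582) therefore enter every comparison, also those without M2. A p-value does not measure the spread of the compared lines alone. The fit was tested on simulated data.

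Alternatives were DESeq2 1.42.0 and its size factors, limma 3.58.1 voom with quality weights, other filters on low counts, no robust estimation, a replicate block, only the 2 lines compared, no minimum fold change, M1 replicate 2 and M2 replicate 1 exchanged, and leaving out each library. Leaving out both doubtful libraries was added after seeing the data. The genes and companion lists were chosen with earlier results of these data known. Up to 4 genes a list are named, those with the smallest adjusted p in M4 against M1, along with genes overlapping a regulator and the 3 most similar protein-coding genes (mean log2 CPM above 1, prior count 2). The other list genes named (among them KRT18, GREB1, NR3C1, ESR2, GATA6, TFF1, ETV4, ETV5, AREG, STC2, CA12 and markers of other cell types) were named after their values were seen. Protein sequences were not used here, and 1 promoter and 1 companion gene, removed from its list and that list's counts, are not reported here. Python 3.11.15, pandas 2.3.3, numpy 2.4.6 and matplotlib 3.10.9 were used for the rest.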

Additional observations from a re-analysis of the deposited data

Results flagged for a closer look

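The changes of 2 genes from M1 differed between M3 and M4 in the main fit, by the direct edgeR comparison of M4 with M3, in which the M1 level cancels. FOXA1 changed by 1.60 more on the log2 scale in M4 than in M3 (adjusted p = 0.0256, higher in both M4 libraries than in either M3 library). TFAP2C changed by -1.39 (adjusted p = 0.026, lower in both M4 libraries than in either M3 library). M3 replicates were 1.97-fold apart for FOXA1 and 2.09-fold for TFAP2C, and in each gene M3 replicate 2 was the higher. The difference was 1.18 for FOXA1 without M3 replicate 1 and -0.76 for TFAP2C without M3 replicate 2. Both calls were lost with the doubtful libraries exchanged (edgeR adjusted p = 0.155 for FOXA1 and 0.158 for TFAP2C) and in several fits without 1 library. The main fit called FOXA1 from M1 in neither line.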

How the results depend on the processing

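Limits first: with 2 replicates a line and M1 replicates far apart, many calls sat near the threshold, and genes with few counts (PGR, ELF5, SPDEF outside M1) could not be ranked at this depth. The number of the 9 genes called in M2 against M1 was 1 (SPDEF, partly set by the filter), and became 4 with DESeq2, 3 with limma voom, 5 with no filter on low counts, 3 with only the 2 lines compared and 2 with no minimum fold change. All genes called there moved too, from 622 of 18431 to 1324 of 16871 with DESeq2, 1054 of 18431 with limma voom and 1788 of 29419 with no filter. They were 602 of 17131 with only the 2 lines compared and 891 of 18431 with no minimum fold change. With M1 replicate 2 and M2 replicate 1 exchanged, the number of the 9 genes called was 0 in M2 against M1, 0 in M3 against M1, 1 in M4 against M1, 1 in M3 against M2, 2 in M4 against M2 and 0 in M4 against M3, beside 0, 219, 1559, 214, 1889 and 830 of all 18431 genes in the same order. The cause of the other changes in the number of the 9 genes called was not tested. Without both of those libraries the number of the 9 genes called fell in M2 against M1 and in M3 against M2. The number of all genes called fell in both as well. Leaving out 1 library moved the number of the 9 genes called in each comparison for some of the libraries. An arm left with 1 library was assumed to vary like the others. The number of all genes called changed between these fits as well. Without an M2 library it fell to a small part of the main count in M2 against M1 and in M3 against M2. The low numbers of the 9 genes there are not read as a result about these genes. Replicate numbers showed little pairing over all genes (correlations of deviations from -0.024 to 0.122, highest between M3 and M4). This check rests on the labels and cannot exclude a shared replicate effect in single genes. The fit with the replicate block called 1 gene in M2 against M1, 4 in M3 against M1, 4 in M4 against M1, 2 in M3 against M2, 3 in M4 against M2 and 3 in M4 against M3. ELF3 was among them in M3 against M1 and in M4 against M3. Of all 18431 genes it called 587, 2338, 3628, 675, 2462 and 1756 in the same order.

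Of the values of single genes under all alternatives, 31 turned direction, some of them losing a call as well. Of the others, 709 kept their side of the threshold, 65 lost a call and 40 gained one. SPDEF in M4 against M2, at -0.01, turned to 0.0095 with DESeq2 size factors, 0.0054 with DESeq2, 0.027 with limma voom, 0.0043 with at least 10 counts in both libraries of a line and 0.024 with the replicate block, and ran from -0.41 to 0.42 leaving out 1 library. With limma voom SPDEF was -0.25 in M3 against M2 and 0.28 in M4 against M3. With the 2 libraries exchanged, M2 against M1 was 0.28 for GATA3, 3.31 for PGR, 0.50 for EHF and 0.57 for SPDEF, M3 against M1 was 2.39 for PGR and 0.25 for TFAP2C, and M3 against M2 was -0.92 for PGR and -3.53 for SPDEF. Without both, PGR was 2.36 in M3 against M1. Leaving out 1 library, M3 against M1 ran from -0.67 to 0.39 for TFAP2C and from -3.25 to 2.40 for PGR, M4 against M1 from -1.36 to 0.53 for ESR1 and from -0.47 to 0.73 for ELF3, M3 against M2 from -1.24 to 0.42 for ELF3 and from -5.26 to 2.61 for SPDEF, and M4 against M3 from -2.62 to 5.24 for SPDEF, from -0.21 to 0.010 for GATA3, from -0.18 to 1.18 for ESR1 and from -0.0040 to 0.50 for EHF. Ranked without exon length, GATA3 held rank 3 of the 9 in M1 and not rank 1.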
